A study of Mus musculus with 12 samples.

Results

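The comparison described here sets splenic B cells from mice given IM156 alone against splenic B cells from untreated mice. Its members are the 6 raw count columns labelled as IM156 or control, of 12 in all, and the 11857 genes of 23282 listed rows that passed a filter on low counts. Of these genes, 11375 passed the filter on the 6 libraries alone and 482 passed only through the other groups. The labels name wild-type C57BL/6 mice aged 7 weeks, while the design text of the series speaks of lupus-prone mice; the labels do not settle this. IM156, which the series title calls an oxidative phosphorylation inhibitor, was injected into the peritoneum on days 0 and 2, at a dose of 30 mg/kg. The spleen was taken on day 4. The labels give no vehicle for the controls, no sex and no number of animals per library. In the groups used for scale, mice received 50 µg of a CpG oligodeoxynucleotide (ODN, a ligand of the innate receptor TLR9) on days 1 and 3, with or without IM156. Each group has 3 replicates, and nothing says that they came from separate animals, so p-values measure only the spread between these samples.

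Oxidative phosphorylation passes electrons from NADH and succinate through complexes I to IV of the mitochondrial inner membrane and uses the resulting proton gradient to drive the ATP synthase. When it is inhibited in cultured cells, AMP rises and activates the kinase AMPK, which slows the growth kinase mTOR. Mitochondrial stress is also known to reach the nucleus through the transcription factor ATF4, whose targets make amino acids and mark stress. Resting B cells use little energy, and activated B cells raise respiration strongly.

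No gene was called for IM156 alone at an adjusted p of 0.05 by edgeR's quasi-likelihood test with Benjamini-Hochberg adjustment (0% of 11857). At an unadjusted p below 0.05 there were 439 genes (3.7%), 213 higher (1.8%) and 226 lower (1.91%) in IM156 libraries. DESeq2 called 2 genes, Chst11 and Eps8l1, and limma-voom called 0. The same edgeR test on the 6 libraries alone called 6 genes, Eps8l1, Amy2a5, Amy2a3, Snord49b, Capn11 and Chst11, and with no low-count filter it called 53, of which 52 are among the genes tested here. The groups did not overlap for 1234 genes (10.4%), of which 612 were higher with IM156 (5.16%) and 622 lower (5.25%). With the same group size and the same controls, ODN against control gave 1255 calls (10.6%). The log2 fold changes with IM156 were balanced, with 5934 positive (50%) and 5922 negative (49.9%), and 231 genes (1.95%) had an estimate beyond 2-fold.

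By the spread of log2 differences the IM156 libraries lay about as close to the controls as the controls lay to each other. By a chi-square of the counts, which takes in the row of Rn45s, the ribosomal RNA precursor, IM156 3 lay farther away. Over 8151 genes with at least 10 CPM, the counts of a gene scaled to the total of its library, the SD of the log2 difference between 2 libraries was 0.235 to 0.277 within controls, 0.191 to 0.25 within IM156 and 0.207 to 0.275 across the groups. The chi-square per degree of freedom was 7.33 to 12.7 within controls, 5.14 to 18.6 within IM156 and 6.16 to 29.0 across the groups. IM156 3 gave 29.0, 17.3 and 18.0 against the controls and 18.6 against IM156 1. IM156 2 gave 20.3 against control 1. Totals were 9891730 to 10993791 counts in controls and 10019443 to 11285692 with IM156. The defining genes of B cells were high in all 6 libraries: the 30 genes of B-cell identity and receptor signalling summed to 21480, 22107 and 23626 CPM in controls and to 22079, 22168 and 22367 CPM with IM156. ODN 3 stands apart from the rest, with Xist at 0.0957 CPM against 924 to 1320 CPM in the other 11 libraries; it enters this comparison through the shared estimate of spread and the filter, and without it there were again 0 calls by edgeR.

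The data bound the change of most genes. A gene was counted as bounded when a test against the bound itself, adjusted over all genes, placed its change inside it. By this test 9938 genes (83.8%) changed by less than 2-fold and 7899 (66.6%) by less than 1.5-fold. The half-width of the 95% interval had a median of 0.32 on the log2 scale, a factor of 1.25. A gene that changed alone would have needed a median fold of 1.96 to be called, and 2.14 to be called with 80% power. These limits depend on level. Of the 1960 genes at 100 CPM or more, 99.8% were bounded below 2-fold. The median lone change needed for a call in that band was 1.52-fold, and 1.61-fold for 80% power. The 4558 genes from 20 to 100 CPM had 99.7% bounded and a limit of 1.73-fold, and the 2853 genes from 5 to 20 CPM had 95.5% bounded and a limit of 2.55-fold. Of the 2486 genes below 5 CPM, 28.7% were bounded, and the median lone change needed for a call was 9.16-fold. For the genes of that band that were not bounded, a change of 2-fold was not excluded at this depth.

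**Figure D1:**
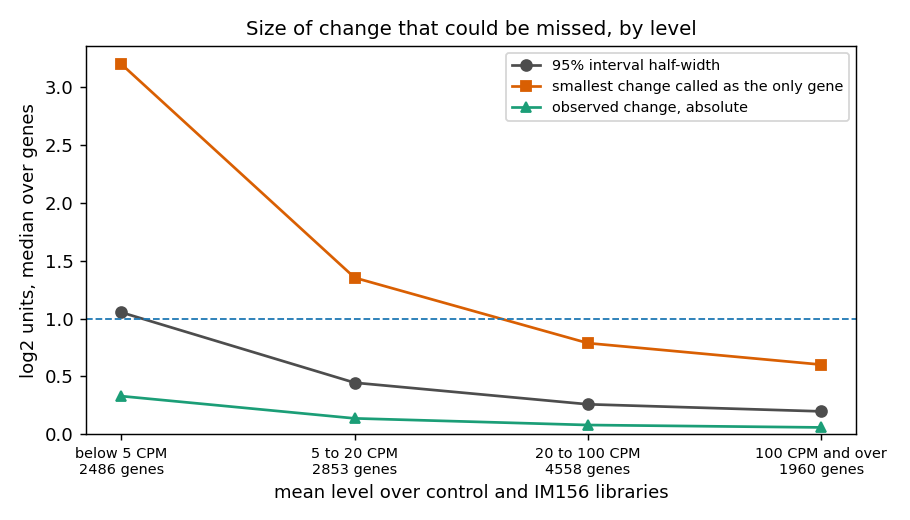
Median over genes, in log2 units (vertical axis), of the half-width of the 95% interval, of the smallest lone change that would be called and of the observed absolute change, for 4 bands of mean level (horizontal axis, CPM). The dashed line marks 2-fold; the smallest callable change lies under it from 20 CPM upward, and the observed change stays below the interval half-width in each band.

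The genes of the machinery that IM156 is described to inhibit had small positive offsets that depended on single libraries. All 36 subunits of complex I, the NADH dehydrogenase, were tested; 29 had a positive and 7 a negative log2 fold change, with a median of 0.09 beside 0.00 over all tested genes. None was called, 1 had an unadjusted p below 0.05, and all 36 were bounded below 2-fold and 35 below 1.5-fold. The exception for the narrower bound was Ndufab1, whose 95% interval ran from -0.48 to 0.72. The groups did not overlap for 6 subunits, Ndufa5, Ndufb3, Ndufb2, Ndufc1, Ndufb7 and Ndufa3, all higher with IM156 (5.16% over all tested genes). The median log2 deviation of the list from the control mean was 0.06, 0.05 and -0.10 in controls and 0.04, 0.08 and 0.15 with IM156, so the groups overlap. Without control 3 the median difference was 0.02, and without IM156 3 it was 0.06.

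Ndufa5, an accessory subunit of the arm that extends into the matrix, was at 86.4, 90.7 and 82.7 CPM in controls and at 110, 107 and 104 CPM with IM156. Every IM156 library lay above every control. The log2 difference was 0.31 (95% interval 0.08 to 0.54; edgeR adjusted p = 0.999). Ndufs1, the large iron-sulfur subunit, was at 71, 78.4 and 81.7 CPM in controls and 77.7, 83.7 and 86.7 CPM with IM156, and these ranges overlap. Ndufb6 had the lowest value of the 36, with 34.7, 27.5 and 24.2 CPM in controls and 23.6, 24.1 and 26 CPM with IM156, a log2 difference of -0.23 (interval -0.55 to 0.10).

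**Figure D2:**
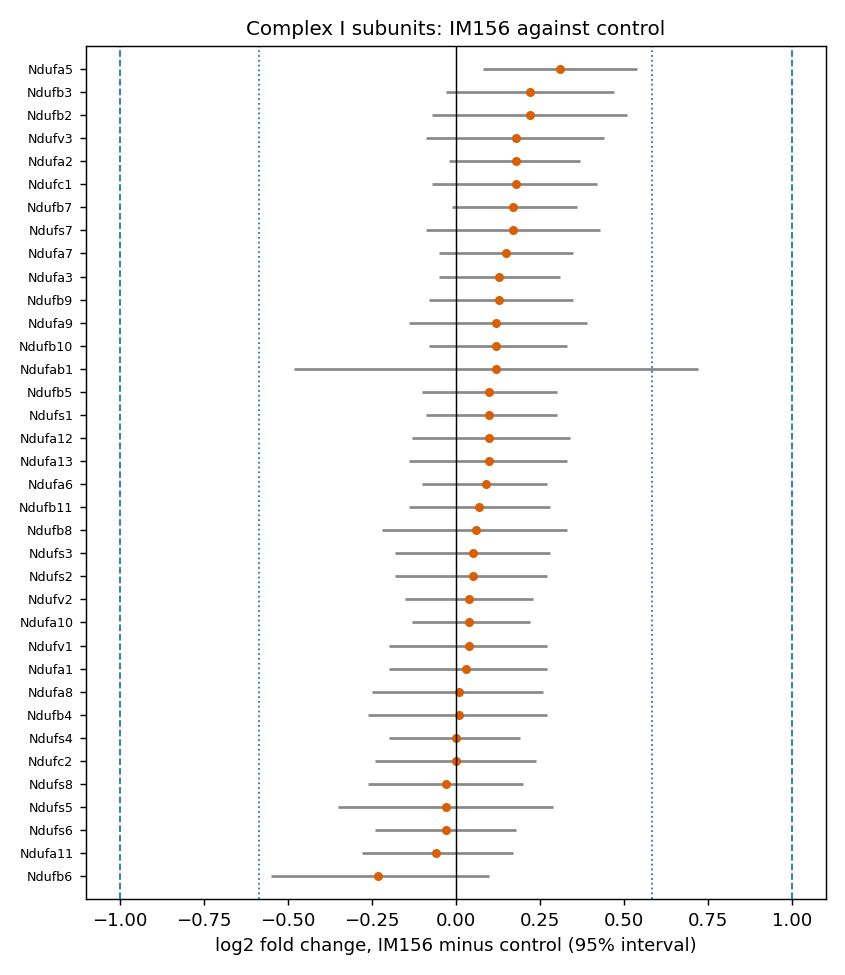
Log2 fold change of IM156 minus control (horizontal axis, points) with the 95% interval (lines) for the 36 complex I subunits (vertical axis). Dotted lines mark 1.5-fold and dashed lines 2-fold; only the interval of Ndufab1 crosses the dotted line.

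The other complexes had offsets of the same size. All 9 tested subunits of complex III and all 12 of complex IV had positive values, each list with a median of 0.10, and 14 of 16 ATP synthase subunits did, with a median of 0.08. Complex II, which passes electrons from succinate, had 3 of 4 positive and a median of 0.10. No member of these lists was called, and every member was bounded below 1.5-fold. These offsets also moved with single libraries: without IM156 3 the median was 0.03 for ATP synthase and 0.06 for complex IV, and without control 3 it was 0.05 for complex II and 0.06 for complexes III and IV. Without control 1 it was 0.16 for complexes II and IV. Uqcrh, a small subunit of complex III, was at 440, 478 and 396 CPM in controls and 449, 494 and 544 CPM with IM156. Cox4i1, the regulatory subunit of cytochrome c oxidase, was at 222, 150 and 157 CPM in controls and 181, 187 and 201 CPM with IM156. Atp5b, the catalytic beta subunit of the ATP synthase, was at 238, 244 and 237 CPM in controls and 230, 257 and 270 CPM with IM156. In all 3 genes the ranges overlap.

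The energy-sensing genes showed no call in either direction. Of 11 tested AMPK subunits and upstream kinases, 6 were positive and 5 negative, with a median of 0.01. Prkaa1, a catalytic subunit of AMPK, was at 30.2, 29.1 and 25.2 CPM in controls and 27, 35 and 32.1 CPM with IM156 (log2 0.16, interval -0.12 to 0.43). Strada, the pseudokinase that partners the AMPK kinase LKB1, had the lowest value, -0.34 (interval -0.63 to -0.05; edgeR adjusted p = 0.999). Of 19 tested genes of the mTOR complexes and their regulators, 12 were positive and 7 negative, with a median of 0.03. These values are transcript levels; the activity of the kinases was not measured.

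No target of ATF4 was called. Of 36 listed targets 27 were tested, 15 positive and 12 negative, with a median of 0.06. Atf4 itself was at 530, 540 and 436 CPM in controls and at 564, 528 and 526 CPM with IM156, a log2 difference of 0.10 (interval -0.12 to 0.32). Ddit3, which encodes the stress factor CHOP, was at 71.9, 58.2 and 57.8 CPM in controls and 56.9, 63.9 and 63.8 CPM with IM156, a difference of -0.02 (interval -0.25 to 0.20). Asns and Trib3, classical targets of ATF4, were too low to bound: Asns lay at 0.544 to 1.79 CPM in controls and 0.597 to 1.5 CPM with IM156. The mitochondrial chaperones and proteases had a median of 0.02 over 15 tested genes, all bounded below 1.5-fold, with Hspd1, the HSP60 chaperonin, at -0.05. The NRF2 antioxidant genes had a median of 0.03 over 23.

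Metabolic genes were near zero as groups. Glycolysis had a median of 0.04 over 20 tested genes, and Ldha, which makes lactate, was at 112 CPM in each of 3 controls and at 107.5, 114.7 and 116.5 CPM with IM156. The TCA cycle had a median of 0.04 over 22, fatty acid oxidation -0.01 over 21, nucleotide synthesis 0.00 over 24, and sterol and fatty acid synthesis 0.08 over 28. Aco1, the cytosolic aconitase that doubles as an iron sensor, was at 19.6, 16 and 14.1 CPM in controls and 8.68, 10.9 and 13.2 CPM with IM156. Its groups do not overlap (log2 -0.59, interval -1.0 to -0.19; edgeR adjusted p = 0.999). Ddit4, an inhibitor of mTOR that is induced by hypoxia and stress, was at 81.4, 177 and 173 CPM in controls and 208, 206 and 217 CPM with IM156. Control 1 is the low library of that gene, and the difference was 0.55 (interval 0.04 to 1.05).

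Interferon-stimulated genes had a negative median with IM156, with no call and with overlapping library levels. These genes are switched on by type I interferon, and many of their promoters hold an element with a repeated GAAA core. All 57 listed genes were tested; 50 had a negative and 7 a positive log2 fold change, with a median of -0.20. The groups did not overlap for 15, all lower, and 12 had an unadjusted p below 0.05. The background over all tested genes is 5.25% for groups that do not overlap in that direction and 3.7% for unadjusted p. The list summed to 7305, 6517 and 6396 CPM in controls and 6784, 6359 and 5863 CPM with IM156, so the groups overlap, and control 1 is high. Without control 1 the median was -0.13. The motif made of GAAA, any 2 bases and a further GAAA, searched on either strand with overlaps allowed in the 250 bases before the start, was present in 16 of 41 matched promoters of this list (39%) and in 312 of 8995 promoters of all tested genes (3.47%). A match is a description of the letters only. Stretches around it are printed for a pair of genes whose groups did not overlap and a pair whose groups did, from RefSeq on GRCm38.p6, 5′ to 3′ on the gene's strand, with the motif in capitals.
Rsad2: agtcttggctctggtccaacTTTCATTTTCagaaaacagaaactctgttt
Trim30a: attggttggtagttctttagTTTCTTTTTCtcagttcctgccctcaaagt
Ifit1: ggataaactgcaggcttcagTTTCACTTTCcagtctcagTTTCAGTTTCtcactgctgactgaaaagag
Isg15: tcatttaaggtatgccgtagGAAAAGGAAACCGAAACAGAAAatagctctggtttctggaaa
They lie at chr12:26456543-26456592 on the minus strand (Rsad2), chr7:104465200-104465249 on the minus strand (Trim30a), chr19:34640765-34640833 on the plus strand (Ifit1) and chr4:156200855-156200916 on the minus strand (Isg15). In Isg15 overlapping matches run into a single stretch of capitals.

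Rsad2, the antiviral enzyme viperin, was at 22.1, 10.5 and 9.49 CPM in controls and 9.08, 7.67 and 8.96 CPM with IM156; control 1 is high and the groups just fail to overlap. The log2 difference was -0.71 (interval -1.25 to -0.17; edgeR adjusted p = 0.999). Ifit1, an RNA-binding antiviral protein, was at 16.5, 15.2 and 8.23 CPM in controls and 7.38, 6.82 and 10.9 CPM with IM156, and overlapped. Isg15, a ubiquitin-like modifier, was at 26.1, 17.5 and 16.1 CPM against 20.5, 15.9 and 18.7 CPM and differed by -0.11. Usp18, the protease that removes ISG15 and restrains the interferon receptor, was at 19.8, 17.6 and 17.5 CPM in controls and 12.9, 12.5 and 10.5 CPM with IM156. It had the smallest p of the interferon-stimulated genes named here (log2 -0.61, interval -0.94 to -0.29, unadjusted p = 0.000919; edgeR adjusted p = 0.999). Parp12 had the highest value of the list, 1.23, at 0.181 to 0.398 CPM in controls and 0.341 to 1.4 CPM with IM156. Among the interferon receptor and signalling genes, with a median of -0.05 over 20, Jak2 was higher, at 60.0, 66.7 and 57.1 CPM in controls and 78.8, 78.8 and 71.7 CPM with IM156 (log2 0.32, interval 0.11 to 0.53; edgeR adjusted p = 0.999). Of 27 genes inducible by interferon gamma, 23 were negative, with a median of -0.12, and none was called.

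Immediate-early genes, which respond to handling and to receptor signals within minutes, leaned the other way. Of 25 tested, 21 were positive and 4 negative, with a median of 0.16, and 5 had groups that did not overlap, higher with IM156 (5.16% over all tested genes), and 1 lower. Without control 3 the median was 0.09. Egr2, a transcription factor of lymphocyte activation, was the lower one, at 8.45, 6.80 and 6.10 CPM in controls and 5.78, 4.11 and 4.78 CPM with IM156 (log2 -0.54). Fos, a subunit of the transcription factor AP-1, was at 164, 184 and 216 CPM in controls and 254, 252 and 232 CPM with IM156, a difference of 0.39. Dusp1, a phosphatase of MAP kinases, was at 77.7, 91.5 and 84.8 CPM against 119, 118 and 101 CPM. Cd69, an early activation marker, overlapped at 64.5, 91.3 and 69.8 CPM against 95, 94.8 and 89.6 CPM. The genes of NF-kB and TLR signalling had a median of 0.03 over 38 tested.

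Most B-cell subset lists had medians near 0, and the germinal centre and CD11c T-bet lists were below it. The medians were -0.01 for identity and receptor signalling (30 tested), 0.02 for follicular B cells (16), 0.03 for marginal zone B cells (21), 0.02 for plasma cells (21) and 0.00 for MHC class II (11). Fcer2a, which encodes CD23 of follicular B cells, was at 412, 316 and 294 CPM against 304, 285 and 286 CPM, a difference of -0.22 (interval -0.44 to -0.01). Vpreb3, a chaperone-like partner of immunoglobulin light chains, was at 210, 156 and 140 CPM in controls and 232, 225 and 199 CPM with IM156, and the ranges overlap. Cd86, a costimulatory ligand, differed by -0.01. Within the marginal zone list, Cd9 was at 17.5, 23.3 and 21.3 CPM in controls and 24.3, 25.3 and 29.9 CPM with IM156, and S1pr3, a receptor for sphingosine 1-phosphate, at 39.2, 34.8 and 28.4 CPM against 28.1, 25.3 and 24.2 CPM. Neither pair of groups overlaps, and the directions are opposite. Slamf7, a surface receptor of plasma cells, was at 84.9, 71.7 and 85.7 CPM in controls and 67.7, 69.2 and 57.7 CPM with IM156 (log2 -0.32, interval -0.54 to -0.09). Ciita, the master activator of MHC class II, differed by -0.28 (interval -0.53 to -0.03), while H2-Aa, a chain of that class, differed by 0.08. The CD11c T-bet list had a median of -0.08, with 14 of 20 negative and 2 that did not overlap (both lower, against 5.25% over all tested genes). Without control 3 the median of the CD11c T-bet list was 0.00. The germinal centre genes had a median of -0.20, with 17 of 22 negative. For 2 of them the groups did not overlap (both lower, against 5.25% over all tested genes). The median was -0.35 without IM156 1 and -0.34 without control 2, and it ranged from -0.35 to -0.14 across the alternatives. Controls varied widely among themselves, as in S1pr2, a receptor that holds B cells in the germinal centre. It was at 6.16, 3.63 and 14.0 CPM in controls and 6.98, 2.71 and 2.39 CPM with IM156. In bulk samples, fewer cells of a type and less RNA per cell cannot be told apart.

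Mitotic genes had a negative median, with wide spread between libraries. Of 51 mitotic genes 46 were negative, with a median of -0.49, and 9 did not overlap (all lower, against 5.25% over all tested genes); none was called. Without control 3 the median was -0.21. Their sum was 1036, 791.6 and 1157 CPM in controls and 890.6, 824.2 and 712.3 CPM with IM156, so the groups overlap. Mki67, which marks cycling cells, was at 46.5, 29.9 and 68.1 CPM against 44.3, 29.7 and 24.8 CPM, with an interval from -1.34 to 0.24. Only 17 of the 51 were bounded below 2-fold. The S-phase list had a median of -0.08 over 47, which was 0.02 without control 3 and -0.17 without control 2.

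Nearly all ribosomal protein genes had a small positive estimate. Of 77, 74 were positive and 3 negative, with a median of 0.14; 12 did not overlap (all higher, against 5.16% over all tested genes), none was called, and all 77 were bounded below 1.5-fold. Without IM156 3 the median was 0.07, and without control 3 it was 0.08. Rpl35 had the highest value, 0.25 (interval 0.02 to 0.49). All 7 tested snoRNA host genes, several of which share the 5′ oligopyrimidine start of ribosomal protein genes, were positive, with a median of 0.21. Snhg12 was at 41.9, 46.6 and 41.1 CPM in controls and 55.5, 54.9 and 53.4 CPM with IM156 and did not overlap. Genes of the mitochondrial ribosome had a median of 0.05 over 72.

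The same comparison made in ODN-treated mice, which uses 6 other libraries, gave medians of the opposite sign for some lists and the same sign for others. ODN+IM156 against ODN gave 8 calls (0.0675%) and 1919 genes at an unadjusted p below 0.05 (16.2%). The test of the difference between both settings, the interaction, called 0 genes with edgeR, and 1453 genes had an unadjusted p below 0.05 (12.3%). These counts depended on the tool and on ODN 3, the library without Xist. DESeq2 called 165 genes in the interaction (1.39%), and edgeR called 260 without ODN 3 and 2 without ODN 1. ODN+IM156 against ODN gave 794 edgeR calls without ODN 3 and 6 without ODN 1. Over all genes 5466 (46.1%) had the same sign in both. Complex I had a median of -0.23 with ODN (34 of 36 negative) beside 0.09 without, and ribosomal proteins -0.34 (77 of 77 negative) beside 0.14. In the DESeq2 interaction 56 of 77 ribosomal proteins were called (72.7%), all with a lower difference under ODN, and 3 of 36 complex I subunits (8.33%), also all lower. The interferon-stimulated genes had 0.12 with ODN (43 positive) beside -0.20. Mitotic genes were negative in both, with -1.01 (51 of 51 negative) beside -0.49. Their sum was 5204, 2505 and 1624 CPM with ODN and 1262, 1909 and 1713 CPM with ODN+IM156; these groups overlap, and without ODN 1 the median was -0.33. Without ODN 3 it was -1.36, with 47 of 51 called by edgeR. Without ODN 3, 49 of 77 ribosomal proteins and 9 of 36 complex I subunits were also called by edgeR with ODN. These counts, and that of the mitotic genes, stand beside 794 calls over all genes in that fit. The main fit tested 11857 genes. The immediate-early genes were positive in both, with 0.17 beside 0.16. With ODN, 2 of the 25 tested were called in the main fit, beside 8 calls over all tested genes (0.0675%). By edgeR on all 12 libraries no member of these 5 lists was called in the interaction, whereas DESeq2 also called 1 interferon-stimulated gene, 1 immediate-early gene and no mitotic gene.

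**Figure D3:**
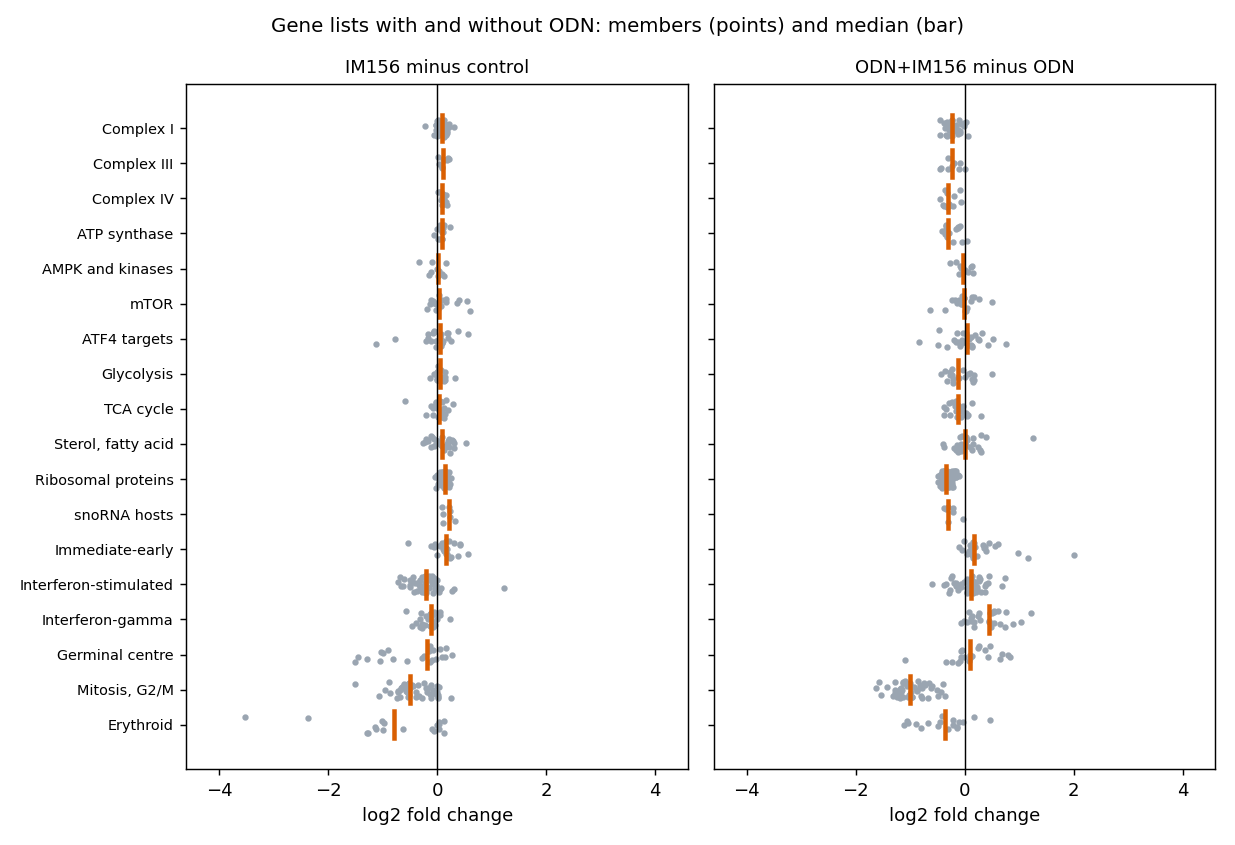
Log2 fold change (horizontal axis) of the members (grey points) and the median (orange bar) of 18 gene lists (vertical axis), for IM156 minus control on the left and ODN+IM156 minus ODN on the right. Complex I and ribosomal protein medians are positive on the left and negative on the right, and mitotic medians are negative on both sides.

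The genes with the smallest p-values were Eps8l1, Chst11, Cacnb4, Capn11 and Sla. Eps8l1 (chr7:4460674-4480487, GRCm38), a relative of the actin regulator EPS8, was at 36.9, 37.8 and 46.2 CPM in controls and 18.9, 18.1 and 21.1 CPM with IM156. The groups stood well apart, at a log2 difference of -1.05 (interval -1.50 to -0.61, unadjusted p = 8.87e-05). The authors' deposited table gives a ratio of 0.482 with p = 0.003 for Eps8l1. Here the edgeR adjusted p was 0.631, and the gene was called by DESeq2 at 0.00906 and by edgeR on the 6 libraries alone at 0.000689. In ODN-treated mice the difference was -0.35 (edgeR adjusted p = 0.442).

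Chst11 (chr10:82985498-83195900), a chondroitin sulfotransferase, was at 5.47, 2.99 and 4.55 CPM in controls and 17.6, 18.6 and 6.99 CPM with IM156. IM156 3 is the low one, and the difference was 1.73 (interval 0.98 to 2.48; edgeR adjusted p = 0.631). Cacnb4, a calcium channel subunit, was at 7.65, 7.62 and 5.33 CPM in controls and 7.98, 19.6 and 47.8 CPM with IM156, so its value of 1.88 rests on the last 2 libraries. It was called without IM156 1 (edgeR adjusted p = 0.00379). Capn11, a calpain known from testis, had 23, 13 and 14 counts in controls and 0 in each IM156 library. It was also at 0 CPM in each ODN library, which received no IM156, and at 0.943, 0 and 1.15 CPM with ODN+IM156. Sla, an adaptor that dampens antigen receptor signalling, was at 136, 158 and 167 CPM in controls and 206, 192 and 204 CPM with IM156 and did not overlap (log2 0.38, interval 0.20 to 0.57; edgeR adjusted p = 0.852). With ODN, Sla differed by 0.31. Eps8l1, Chst11, Cacnb4, Usp18 and Sla each have an annotated gene on the opposite strand, whose reads cannot be told apart from theirs without the strand rule of counting. The same holds for other genes named here, among them Zfp219, Med26, Lcmt1, Cox4i1, Ndufb6, Ndufs1 and Ciita.

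Among genes of at least 10 CPM whose groups did not overlap, 437 were higher and 416 lower. The 8 with the largest positive estimates were Cacnb4, Zfp219, Med26, Nek3, Cdh17, Lcmt1, Gemin6 and Ctla2a, from 1.88 down to 0.58. The 8 largest in the other direction were 5 globin genes, Snord49b, Slc15a2 and Eps8l1, from -1.14 to -0.98. Zfp219, a zinc finger protein, was at 19.1, 14.9 and 21.7 CPM in controls and 30.0, 23.8 and 34.5 CPM with IM156 (log2 0.67, interval 0.29 to 1.04; edgeR adjusted p = 0.999). Med26, a subunit of the Mediator complex, was at 8.65, 11.7 and 8.52 CPM against 13.9, 15.1 and 15.6 CPM. Lcmt1, which methylates the phosphatase PP2A, was at 10.9, 11.0 and 8.13 CPM against 14.4, 17.0 and 14.3 CPM. In each of these 3 genes the lowest IM156 library lies above the highest control, by a margin smaller than the spread within the IM156 group for Zfp219. Snord49b, a small nucleolar RNA, was at 93.6, 85.0 and 71.7 CPM in controls and 52.6, 33.8 and 29.1 CPM with IM156. It was called on the 6 libraries alone (edgeR adjusted p = 0.00236). Its level was 77.38, 6.355 and 85.15 CPM in ODN libraries and 52.08, 51.79 and 32.17 CPM with ODN+IM156. Its lowest library was ODN 2, which received no IM156. With ODN, 3 of the 8 higher and 8 of the 8 lower genes kept their sign, and 5 of the lower genes are globin copies that share reads. Over all such genes 167 of the 437 higher and 178 of the 416 lower kept it, beside 46.1% over all genes. Slc15a2, an oligopeptide transporter, was at 16.7, 35 and 18.2 CPM in controls and 7.78, 11.3 and 14 CPM with IM156. With ODN it fell by 3.24 on the log2 scale, from 30.8, 19.8 and 33 CPM to 3.11, 0.951 and 4.52 CPM (edgeR adjusted p = 0.000519), and the interaction had an edgeR adjusted p of 0.154.

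**Figure D4:**
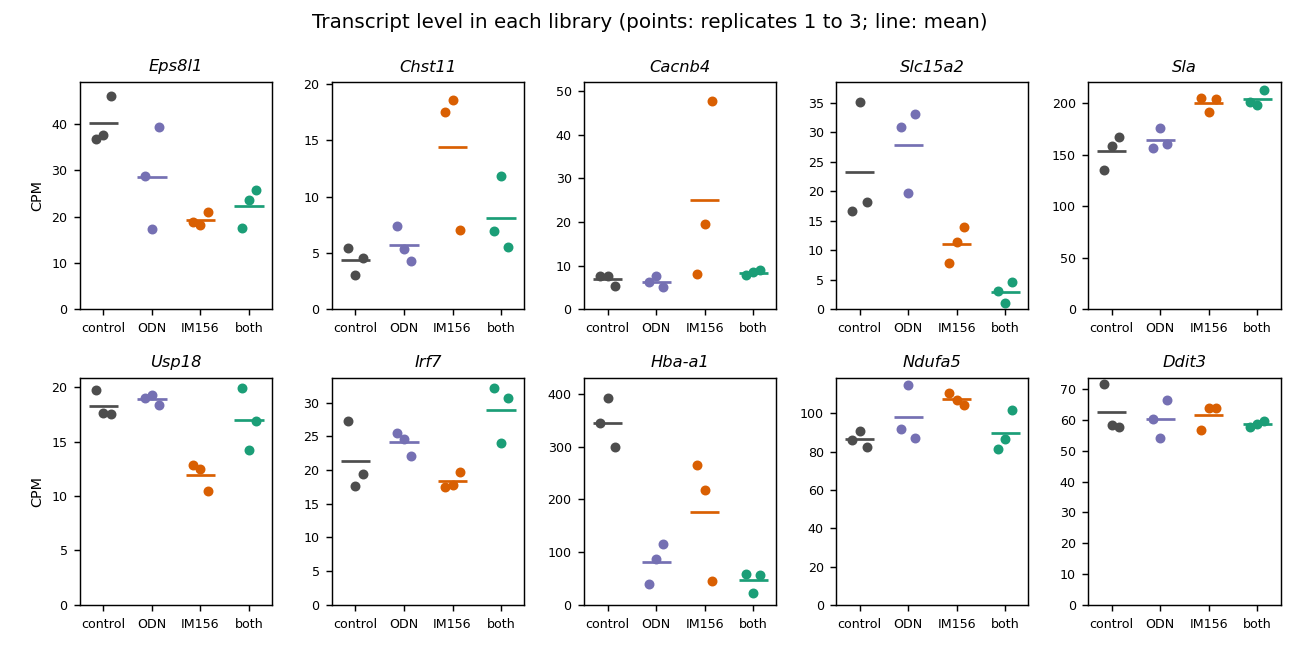
CPM (vertical axis, linear from 0) of 10 genes in each library, with points for replicates 1 to 3 and a line for the mean, in controls, ODN, IM156 and ODN+IM156 ("both"). Eps8l1 and Usp18 are lower in the 3 IM156 libraries than in the 3 controls, whereas Ddit3 overlaps.

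Erythroid transcripts summed to less in each of the 3 IM156 libraries than in any control, with no gene called. Of 18 tested erythroid genes 13 were negative, with a median of -0.80; 7 did not overlap (all lower, against 5.25% over all tested genes) and 9 had an unadjusted p below 0.05 (3.7% over all tested genes). Hba-a1, an alpha globin, was at 345, 393 and 300 CPM in controls and 266, 218 and 45.5 CPM with IM156, where IM156 3 is far below the others. The list summed to 1285, 1438 and 1243 CPM in controls and 1159, 1051 and 654.1 CPM with IM156. Without IM156 3 the median of the list was -0.45, and without IM156 1 it was -1.27. Globin genes are near-identical copies, so their reads may be shared between rows. Neutrophil genes were near the floor, with 4 tested of 20 listed rows and 5 rows at 0 in the 6 libraries, Lcn2, Cebpe, Ctsg, Stfa1 and Fcnb. The monocyte and macrophage list summed to 489.4 to 548.6 CPM in controls and 506.5 to 597.6 CPM with IM156.

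A list of 30 genes of pancreatic acinar cells, the enzyme-secreting cells of the pancreas, was chosen after its values were seen. It summed to 2.68, 5.35 and 6.68 CPM in controls and 12.4, 25.5 and 51.1 CPM with IM156, and all 3 IM156 libraries lay above all controls. It also reached 27.7 CPM in ODN 2 and 12.5 CPM in ODN+IM156 3. Amy2a5, a pancreatic amylase, had 0 counts in each control and 23, 55 and 124 counts with IM156, at least 65.2-fold higher over a floor of 3 counts over the group. The amylase genes are near-identical copies and share reads. The share of counts on Rn45s, the ribosomal RNA precursor, was 9.63%, 8.04% and 7.41% in controls and 8.0%, 5.23% and 4.78% with IM156, so the groups overlap. In ODN 2 it was 1.46%, the lowest of the 12 libraries, and in ODN+IM156 3 it was 5.18%. IM156 3, with the most acinar transcripts and the least Rn45s of the 6 libraries, also had the largest median log2 deviation from the control mean, among the IM156 libraries, of 4 lists: 0.20 for ribosomal proteins beside 0.06 and 0.10 in IM156 1 and 2, 0.15 for complex I beside 0.04 and 0.08, -0.24 for interferon-stimulated genes beside -0.09 and -0.20, and -0.57 for mitotic genes beside -0.20 and -0.24. Not every list followed this order. The immediate-early list was at 0.17, 0.17 and 0.07 in IM156 1, 2 and 3, and the monocyte and macrophage list at 0.54, 0.26 and -0.00. The part of acinar transcripts or Rn45s in these results was not tested. Without the Rn45s row the ribosomal protein median was 0.14.

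**Figure D5:**
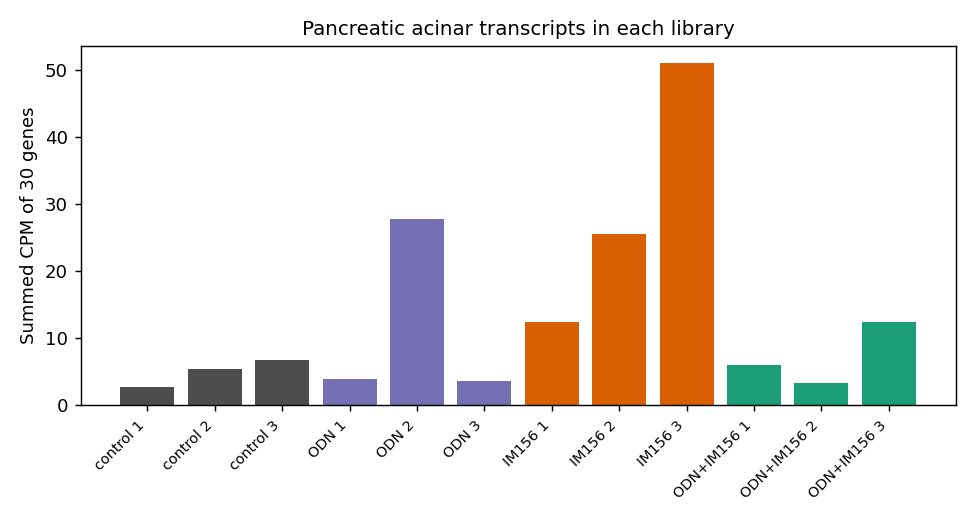
Summed CPM (vertical axis, linear from 0) of 30 pancreatic acinar genes in each of the 12 libraries (bars, coloured by group). The 3 IM156 libraries, at 12.4 to 51.1 CPM, lie above the 3 controls, and ODN 2 and ODN+IM156 3 also stand out.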

How the data were processed

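The libraries are 3′ RNA-seq libraries of splenic B cells. The raw counts per gene were deposited by the authors, and the submitters' processing notes name Bowtie2, bedtools, edgeR and the build GRCm38 (mm10); the strand rule of counting is not given in the sources used here. The deposited table also holds the authors' fold ratio and p-value for IM156 against control: 598 of 11857 tested rows had p below 0.05 in the authors' deposited table. Another 16 columns of normalized values and averages were not used. Counts were scaled by TMM and tested with edgeR 4.0.16 (quasi-likelihood, R 4.3.3) in a fit of 4 groups over 12 libraries after filterByExpr, with Benjamini-Hochberg adjustment over all tested genes; DESeq2 1.42.0 and limma 3.58.1 were alternatives, and summaries used Python 3.11.15. Calls required an adjusted p under 0.05. The 95% intervals use the fit's standard error; bounds are 2 one-sided tests against 2-fold and 1.5-fold, and the callable change is computed from the standard error. The scripts were tested on simulated data. Fold changes are the fit's log2 estimates with its prior count. The 3′ counts carry no gene length, so levels are compared within a gene only. Genes on several rows (35 symbols on 79 rows) were kept as rows.

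The genes named are the 8 largest changes in each direction with at least 10 CPM and groups that do not overlap, the 5 smallest p-values, the highest, lowest and most abundant member of each list, and a fixed panel. Fos, Dusp1, Ifit1, Trim30a, Ndufab1 and the pancreatic genes were named after their values were seen. So were Ndufb3, Ndufb2, Ndufc1, Ndufb7 and Ndufa3, and the neutrophil genes Lcn2, Cebpe, Ctsg, Stfa1 and Fcnb. The comparison, the lists and this panel were chosen with earlier results of these data known. Same-numbered replicates did not deviate together (correlations -0.092 to -0.0075), so the numbers were not taken as pairs. Some results are not reported here.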

Additional observations from a re-analysis of the deposited data

How the results depend on the processing

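Across 15 alternatives, genes called for IM156 against control numbered 2 with DESeq2, 53 with no low-count filter, 6 on the 6 libraries alone and 0 to 1 leaving out 1 library; genes at an unadjusted p below 0.05 numbered 787 with no filter. With the replicate block there were 0 calls, and 3 for ODN+IM156 against ODN. That comparison gave 373 calls with DESeq2, 33 with limma-voom, 664 with no filter, 124 with robust estimation and 4 to 10 leaving out 1 control or IM156 library. The interaction gave 165 with DESeq2 and 276 with no filter. Leaving out ODN 1 or ODN 3 was added after seeing the data: it gave 0 calls for IM156 against control in either case, 6 and 794 for ODN+IM156 against ODN, 2 and 260 for the interaction, and 763 and 1874 for ODN against control. ODN against control gave 811 (without control 3) to 1177 calls leaving out 1 control or IM156 library. In the remaining alternatives it gave 1119 (limma-voom) to 1625 (no filter), beside 1255 in the main fit. List medians that moved were ATF4 targets (-0.03 with no filter), NRF2 genes (0.08 with limma-voom; 0.06 to 0.10 leaving out 1 library), follicular genes (0.04 with library totals; -0.02 to 0.03), NK genes (-0.28 on 6 libraries), erythroid genes (-0.36 on 6 libraries; -1.27 to -0.45), T cells (-0.02 to 0.19), neutrophils (-1.02 to -0.28), platelets (-0.07 to 0.42) and stromal genes (-1.04 to 0.33). The cause was not tested. The median changed sign under some alternative for 17 of 46 lists; complex I stayed between 0.02 and 0.12, ribosomal proteins between 0.07 and 0.18, interferon-stimulated genes between -0.24 and -0.13 and mitotic genes between -0.66 and -0.21. With 3 libraries per group, changes in genes below 5 CPM are poorly bounded.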
